A study of Mus musculus with 6 samples.

Results

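The TGF-beta, BMP and activin signalling genes of inguinal white adipose tissue (iWAT) were examined: 40 genes for ligands, receptors, SMAD proteins, secreted antagonists and the ID targets of the pathway, out of 36144 gene symbols in the deposited table. The genes were chosen by name and role, by a rule that uses no measured value, although earlier results of these data were known when they were chosen. The libraries came from whole iWAT of 10-week-old, randomly fed female mice on a C57BL6/J background, 3 Cebpa_fl/fl and 3 Cebpa_ASKO, and each library is poly-A RNA of 1 mouse, with both depots extracted together and the lymph nodes taken out. Both genotypes carry floxed *Cebpa* alleles, the gene for the adipocyte transcription factor C/EBPα. Cebpa_ASKO mice also carry AdipoQ-Cre, which acts only in cells that have turned on the adiponectin promoter, and it leaves the gene intact in the remaining cell types of the depot. The comparison asks how the adipocyte deletion of *Cebpa* left the transcripts of this pathway in the whole depot. A lower level in such bulk tissue can mean fewer cells of a type or less RNA per cell, and these cannot be told apart here.

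Ligands of the TGF-beta family are secreted dimers that bring together a type II and a type I receptor, both of them kinases. The type I receptor then phosphorylates SMAD proteins: SMAD2 and SMAD3 for TGF-beta and activin-like ligands, SMAD1 and SMAD5 for BMPs. With SMAD4 these enter the nucleus, where the ID genes and the inhibitory SMADs are classic targets. In fat, BMPs act on the commitment and thermogenic character of precursors, TGF-beta and activin A act against adipocyte differentiation, and ALK7, the receptor made from *Acvr1c*, restrains lipolysis in adipocytes.

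Expression per library is given as normalized CPM, estimated counts scaled to a common library size with TMM factors. Changes are log2 fold changes of Cebpa_ASKO over Cebpa_fl/fl with the standard error (SE), with calls made where edgeR's quasi-likelihood test, adjusted over all 16069 genes that passed its filter on low counts, gave p below 0.05. The libraries held 33141769 to 49477671 estimated counts. *Cebpa* itself had 448, 465 and 498 CPM in Cebpa_fl/fl and 37.7, 45.8 and 37.2 CPM in Cebpa_ASKO (log2 fold change -3.55, SE 0.131, edgeR adjusted p = 0.000163), so every library matched its label. The summed CPM of 10 adipocyte markers lay between 29469 and 35303 in Cebpa_fl/fl and between 10156 and 12896 in Cebpa_ASKO, with 6 of the 10 called lower. *Plin1* and *Adipoq*, which define adipocytes, were present in every library, while *Retn* fell from a mean of 1112 to 1.18 CPM. Marker values of other cell types are given beside results that they moved with.

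Of the 40 genes, 39 were tested and 2 were called, both lower in Cebpa_ASKO: *Acvr1c*, the ALK7 receptor of activin-like ligands, and *Id1*, a BMP target that blocks basic helix-loop-helix transcription factors. That is 5.13% of the tested genes of the pathway, beside 5.23% of all tested genes, of which 3.84% were called lower and 1.39% higher. No member was called higher by edgeR, while 5 members were higher and 3 lower at an unadjusted p below 0.05 (20.5%, beside 19.8% of all tested genes). DESeq2 called 4 members, the same pair with *Bmp3* lower and *Mstn* higher, beside 10.2% of all genes it tested. *Acvr1c* and *Id1* were called under each of the 17 settings run, in which the share of all tested genes called ran from 1.48% (limma on TPM without a filter) to 10.2%. The number of members called rose to 3 without Cebpa_fl/fl 2, which added *Fst* (5.65% of all genes called), and to 4 without Cebpa_ASKO 3, which added *Mstn* and *Smad6* (4.41%).

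**Figure D1:**
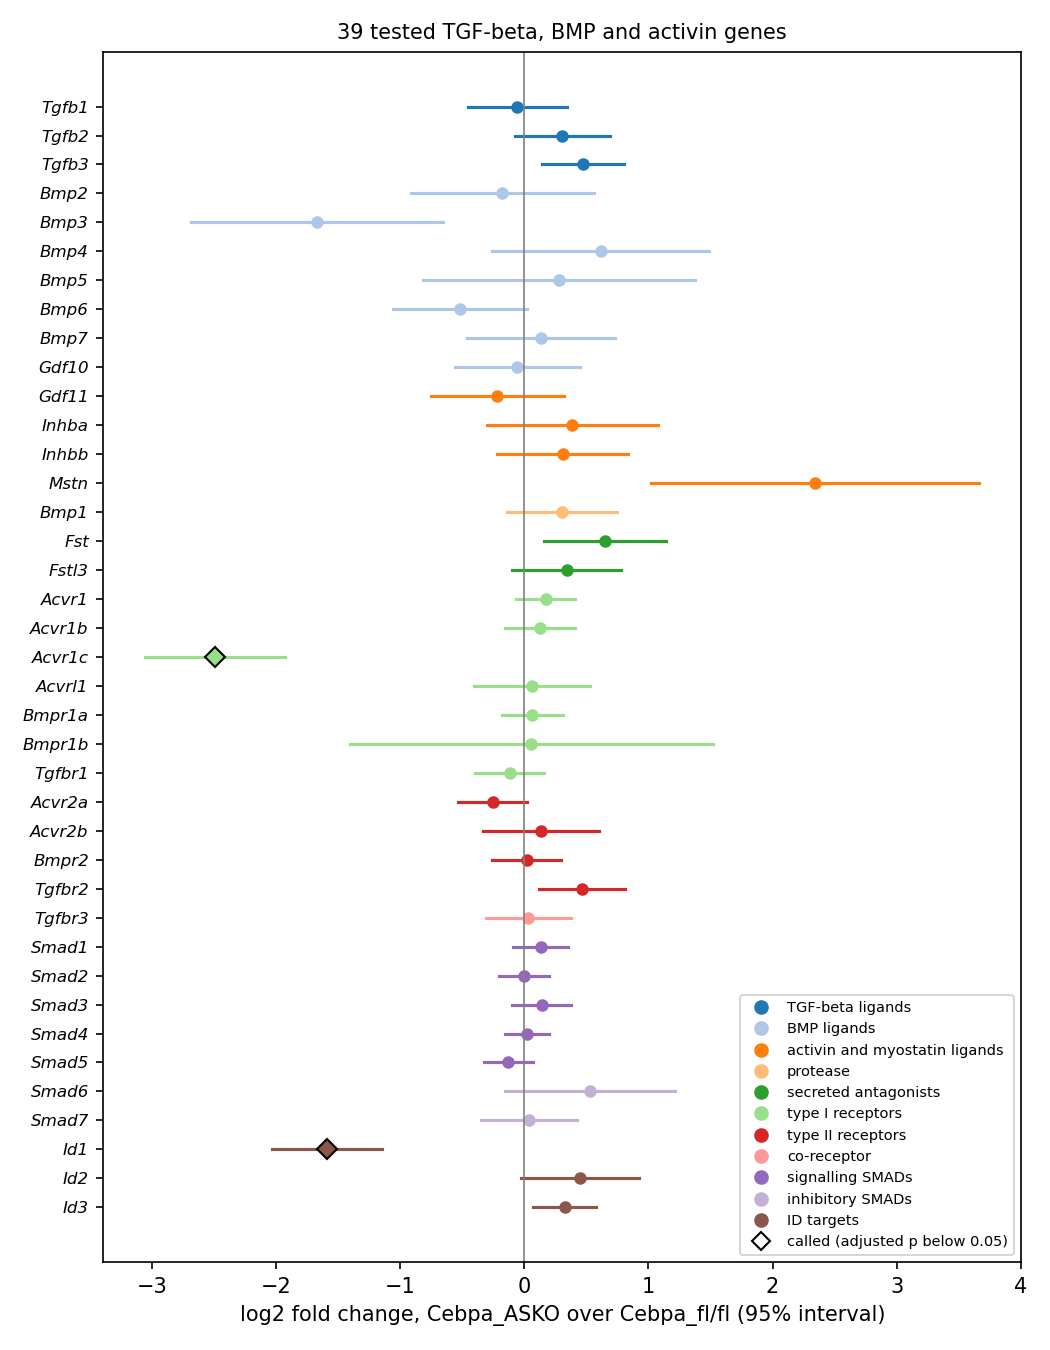
Log2 fold change of Cebpa_ASKO over Cebpa_fl/fl for the 39 tested genes on the x axis, coloured by role, with 95% intervals from edgeR's quasi-likelihood test as bars and diamonds for the 2 called genes. *Acvr1c* lies farthest left at -2.49 and *Id1* at -1.59, with the uncalled *Bmp3* between them at -1.67. *Bmp3* and *Mstn* have wide intervals that leave out 0 without being called, and the 5 signalling SMADs lie within 0.14 of 0.

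The log2 fold change was under 0.5 in size for 31 of 39 members (79.5%), beside 78.6% of all tested genes, and 27 lay above 0 and 12 below. The median was 0.13, beside 0.02 over all tested genes. The genotypes did not overlap for 12 members (30.8%, beside 26.1% of all tested genes), 8 of them higher in Cebpa_ASKO (*Tgfb3*, *Tgfbr2*, *Acvr1*, *Mstn*, *Fst*, *Fstl3*, *Id2*, *Id3*) and 4 lower (*Bmp3*, *Bmp6*, *Acvr1c*, *Id1*). Over all tested genes 12.9% lay higher without overlap and 13.2% lower. In TPM, 9 of these 12 members stayed apart, while *Bmp6*, *Acvr1* and *Fst* overlapped. The marker sums of skeletal muscle, given below with *Mstn*, and of 3 further cell types were likewise higher in Cebpa_ASKO without overlap. They were 1713 to 1860 against 648 to 1304 CPM for mammary epithelium and 1037 to 1240 against 808 to 1003 CPM for smooth muscle and pericytes. Schwann cells had 460 to 581 against 297 to 405 CPM, with 2 of their 10 markers called. The part of these cell types in the members that lay higher was not tested. As a share of all TPM, the length-normalized unit in which genes can be compared with each other, the 40 genes together took 0.0563% ± 0.0082 in Cebpa_fl/fl and 0.0628% ± 0.00703 in Cebpa_ASKO (SD, n = 3). The pathway as a whole thus held a like share of the transcripts in both genotypes, and the ranges overlapped.

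One control library ran high across the pathway. Cebpa_fl/fl 2 was the highest of the 3 Cebpa_fl/fl libraries for 28 of 39 members (71.8%, beside 37.0% of all tested genes). It also had the highest summed CPM of fibroblast and progenitor markers, 14080 against 8124 and 7830 in the other control libraries and 9772 to 11783 in Cebpa_ASKO. Its macrophage marker sum was 2928 CPM, against 1608 and 1079 in the other controls. The part of these cells in the members' values was not tested. Without that library, 10 members were higher at an unadjusted p below 0.05 in edgeR, against 5 with it. The rise was also seen among the 73 further pathway genes described below, of which 15 were higher on that measure without it and 8 with it. Over all tested genes, only calls at an adjusted p below 0.05 were counted, 264 of 16312 higher without it and 223 of 16069 with it. That is another measure, so it cannot show whether the rise at an unadjusted p held across all genes.

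The TGF-beta ligands were present at moderate levels. *Tgfb1*, the form made by many cell types including immune cells, had a mean of 20.7 ± 3.31 TPM in Cebpa_fl/fl and 20.6 ± 3.35 TPM in Cebpa_ASKO, and the libraries overlapped (log2 fold change -0.06, 95% interval -0.46 to 0.34). *Tgfb3* was 30.2, 42.0 and 39.01 CPM in Cebpa_fl/fl and 47.2, 51.8 and 55.7 CPM in Cebpa_ASKO. Every Cebpa_ASKO library thus lay above every control, but the change of 0.48 was not called (edgeR adjusted p = 0.119). *Tgfb2*, the least abundant of the ligands of this group, had means of 2.89 and 3.63 TPM (log2 fold change 0.31) with overlapping libraries.

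Of the 7 BMP ligands, none was called, 2 had genotypes that did not overlap (28.6%, beside 26.1% of all tested genes), and both of these were lower in Cebpa_ASKO. *Bmp3* makes an atypical BMP that opposes other BMPs. It had 13.0, 25.8 and 12.7 CPM in Cebpa_fl/fl and 4.06, 8.45 and 3.66 CPM in Cebpa_ASKO. Cebpa_fl/fl 2 was near 2.0 times the other controls, and Cebpa_ASKO 2 stood above its group in the same way, yet it stayed below the lowest control. The log2 fold change was -1.67 (SE 0.424, 95% interval -2.68 to -0.66, edgeR adjusted p = 0.0821), so the mean level in Cebpa_ASKO was 31.4% of the control level. DESeq2 called it (-1.68, adjusted p = 0.000922). *Gdf10*, also named BMP3B and the closest relative of *Bmp3*, had means of 42.2 ± 13.3 and 40.7 ± 2.98 CPM, with a log2 fold change of -0.06.

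*Bmp6* encodes a BMP that also drives hepcidin in the liver. Its 3 control libraries had 7.71, 13.1 and 8.52 CPM and its Cebpa_ASKO libraries 6.15, 6.79 and 7.50 CPM. The genotypes came close to each other, and the gap between the lowest control and the highest Cebpa_ASKO library was small beside the spread of the controls. The change of -0.52 (SE 0.226, 95% interval -1.06 to 0.02, edgeR adjusted p = 0.269) was not called. The remaining BMPs overlapped. *Bmp2* ran from 2.69 to 5.72 CPM in the controls and from 3.06 to 4.38 CPM in Cebpa_ASKO (-0.18). *Bmp5* ran from 0.401 to 1.42 and from 0.919 to 1.14 CPM (0.28). *Bmp7*, which promotes brown fat formation, ran from 6.84 to 13.3 and from 9.97 to 12.2 CPM (0.13). *Bmp4*, a BMP that commits precursors to the adipocyte lineage, had means of 2.13 ± 1.02 and 3.27 ± 0.664 CPM, and an interval of -0.26 to 1.49. By TPM, *Gdf10* was the most abundant BMP ligand at 10.0 ± 3.71 in the controls, and *Bmp5* the least at 0.316 ± 0.148.

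Among the activin and myostatin ligands, *Inhbb*, whose product pairs with itself to make activin B, an ALK7 ligand, was by far the most abundant at 19.9 ± 3.92 TPM in Cebpa_fl/fl and 25.6 ± 7.12 TPM in Cebpa_ASKO. Its CPM of 59.3, 63.8 and 82.1 in the controls and 86.2, 107 and 61.0 in Cebpa_ASKO overlapped through Cebpa_ASKO 3 (log2 fold change 0.31, 95% interval -0.22 to 0.84). *Inhba*, the activin A subunit, stayed under 0.5 TPM on average in both genotypes (log2 fold change 0.39). *Gdf11*, the relative of myostatin, had means of 1.49 and 1.35 TPM and a change of -0.22.

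*Mstn*, the gene for myostatin, a brake on muscle growth made chiefly in skeletal muscle, was barely present in the controls. It had 0.290, 0.487 and 0.275 CPM in Cebpa_fl/fl and 1.87, 2.81 and 0.718 CPM in Cebpa_ASKO. All 3 Cebpa_ASKO libraries lay above the controls, with Cebpa_ASKO 3 the nearest. The log2 fold change was 2.34 (SE 0.554, 95% interval 1.02 to 3.67), and edgeR did not call it (adjusted p = 0.0670), while DESeq2 did (adjusted p = 0.00174) and edgeR did so without Cebpa_ASKO 3 (2.71, adjusted p = 0.0241). The skeletal muscle markers moved with it: 8 of 10 were called higher, and their summed CPM ran from 537 to 736 in the controls and was 2799, 5273 and 1807 in Cebpa_ASKO 1, 2 and 3, the same order as *Mstn*. *Acta1* and *Ckm*, which define that tissue, had means of 104 and 79.1 CPM in the controls and 509 and 425 CPM in Cebpa_ASKO. Set against *Ckm*, *Mstn* was 1.65, 2.06 and 1.81 per 1000 TPM of *Ckm* in Cebpa_fl/fl and 2.19, 1.67 and 1.22 in Cebpa_ASKO, so on that scale the genotypes overlapped.

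**Figure D2:**
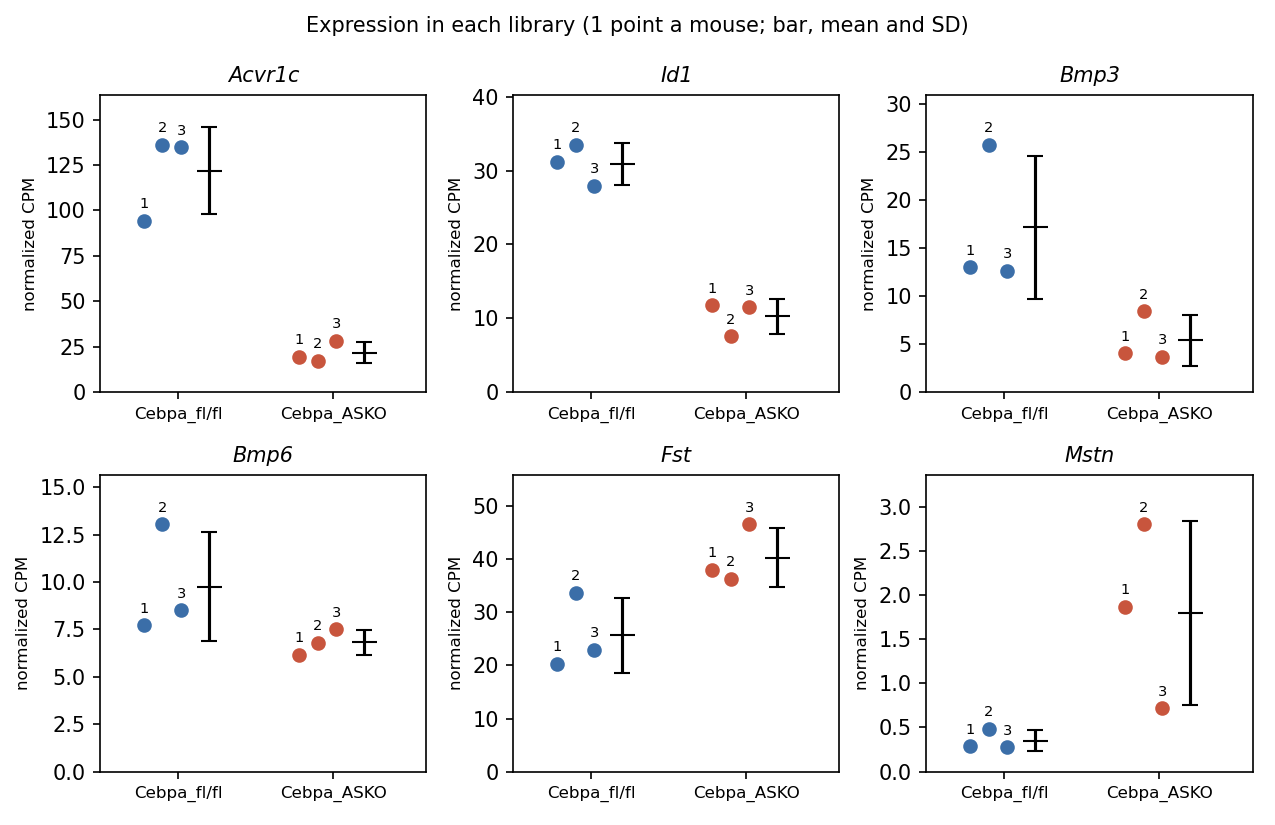
Normalized CPM of 6 genes in each library (y axis, linear, from 0), with 1 numbered point per mouse, blue for Cebpa_fl/fl and red for Cebpa_ASKO, and a bar for the mean and SD of 3. The genotypes are apart in all 6 panels, widely for *Acvr1c* and *Id1* and narrowly for *Bmp6* and *Fst*. Cebpa_fl/fl 2 is the highest control in every panel, though close to Cebpa_fl/fl 3 for *Acvr1c* and to Cebpa_fl/fl 1 for *Id1*.

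Outside the cell, follistatins bind activins and myostatin and keep them from their receptors, gremlin does so for BMPs, and the protease BMP1 frees latent ligands. *Fst* (follistatin) had 20.4, 33.7 and 22.9 CPM in Cebpa_fl/fl and 38.0, 36.3 and 46.7 CPM in Cebpa_ASKO. The genotypes were apart, but Cebpa_fl/fl 2 came close to the lowest Cebpa_ASKO library. The change of 0.65 (SE 0.205, 95% interval 0.16 to 1.14, edgeR adjusted p = 0.142) was not called, and without Cebpa_fl/fl 2 it was 0.89 and called (adjusted p = 0.0227). The related *Fstl3* was lower in abundance, with 3.01 to 3.75 CPM in the controls and 3.86 to 4.69 CPM in Cebpa_ASKO (log2 fold change 0.34, adjusted p = 0.371). *Bmp1* had means of 37.7 ± 11.9 and 47.5 ± 8.39 TPM, and the libraries overlapped (log2 fold change 0.30).

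The ratio of *Inhbb* to *Fst* in TPM, activin B subunit to its binder, was 1.27, 0.878 and 1.77 in Cebpa_fl/fl and 1.14, 1.40 and 0.614 in Cebpa_ASKO, so it overlapped too. *Grem1* was the only member below the filter. It had 1.02 CPM in Cebpa_fl/fl 1, 0 in the other controls, and 0.0317, 0 and 0.0224 CPM in Cebpa_ASKO. A limit of 3 counts amounts to 0.0636 to 0.0951 CPM in these libraries, so all but Cebpa_fl/fl 1 lay under it. That library also held 427 CPM of summed lymphocyte markers, against 41.4 to 84.1 CPM in the other 5 libraries, and the part of those cells in its *Grem1* was not tested.

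The receptors held the largest change of the pathway. *Acvr1c* (chr2:58267453-58357895, minus strand, GRCm38) had 94.2, 136 and 135 CPM in Cebpa_fl/fl and 19.4, 17.3 and 28.4 CPM in Cebpa_ASKO. Every Cebpa_ASKO library was thus far under the lowest control, and the distance was larger than the spread in either genotype. The log2 fold change was -2.49 (SE 0.237, 95% interval -3.05 to -1.92, edgeR adjusted p = 0.00262), which left 17.8% of the control mean. Nearly all of it came from 1 protein-coding transcript, which made up 97.2% of the gene's TPM in Cebpa_fl/fl and 95.2% in Cebpa_ASKO.

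*Acvr1c* fell together with adipocyte markers, of which 9 of 10 had genotypes that did not overlap, all lower. Set against *Adipoq*, it was 0.519, 0.546 and 0.719 per 100 TPM of *Adipoq* in Cebpa_fl/fl and 0.642, 0.723 and 1.09 in Cebpa_ASKO, which overlap. Set against *Plin1*, the coat protein of the lipid droplet, it was 1.84, 2.69 and 2.02 per 100 TPM in Cebpa_fl/fl and 0.594, 0.604 and 1.17 in Cebpa_ASKO, which do not. The log2 fold change of *Acvr1c* thus lay between those of *Plin1* (-1.12) and *Adipoq* (-2.93). The 10 adipocyte markers did not fall alike: their changes ran from -9.85 (*Retn*) to -0.43 (*Lep*), with a median of -1.18. *Adipoq* is also a target of C/EBPα in earlier work that the paper cites. Whether fewer adipocytes or less RNA per adipocyte underlie these values cannot be told apart.

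The sequence just upstream of the *Acvr1c* start is shown because this gene changed most. The 113 bases are from RefSeq's promoter table (GRCm38.p6, chr2:58357896-58358008, minus strand), end at the base before the GENCODE start, and have 80.5% G and C against a median of 52.7% over all 32851 promoter windows of 300 bases.
Acvr1c upstream: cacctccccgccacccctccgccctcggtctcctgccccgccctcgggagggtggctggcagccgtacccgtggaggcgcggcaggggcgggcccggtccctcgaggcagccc
Motifs were searched on both strands of each window, which runs from 250 bases before to 50 after the RefSeq start. They were the C/EBP motif as TTNCGNAA and as its strict palindrome TTGCGCAA, the SMAD motifs CAGACA and GTCTAGAC, and the SMAD1 and SMAD5 motif GGCGCC. None of these letters stood in the *Acvr1c* window.

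None of the other type I receptors was called by edgeR or DESeq2, and none had an unadjusted p below 0.05 in edgeR. *Bmpr1a*, the main BMP receptor of this group, had means of 20.8 and 23.2 TPM (log2 fold change 0.07, 95% interval -0.18 to 0.31). *Acvr1b* (ALK4), which shares activin-like ligands and SMAD2 and SMAD3 with ALK7, had means of 8.02 and 9.17 TPM (0.13, -0.15 to 0.41). *Tgfbr1*, the TGF-beta receptor kinase, had 7.81 and 7.40 TPM (-0.12, -0.39 to 0.16). *Acvrl1*, an endothelial receptor, had a log2 fold change of 0.06 and *Acvr1* one of 0.17, the latter with genotypes that did not overlap (18.7 to 21.8 against 22.1 to 25.0 CPM). *Bmpr1b* stayed under 0.5 TPM in each library, and its interval of -1.40 to 1.52 was too wide to bound a change.

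In the make-up of the type I receptor pool, *Acvr1c* gave 18.7%, 21.8% and 23.3% of the summed TPM in Cebpa_fl/fl and 4.06%, 3.50% and 5.67% in Cebpa_ASKO. The genotypes were far apart in this share. The sum over all 7 type I receptors was 77.1 ± 12.1 TPM in Cebpa_fl/fl and 70.5 ± 7.93 TPM in Cebpa_ASKO, with overlap, and without *Acvr1c* it was 60.6 ± 8.30 and 67.3 ± 7.31 TPM, again with overlap. Between the 2 activin-type kinases, *Acvr1c* stood at 1.596, 2.60 and 2.01 times *Acvr1b* in the controls and at 0.307, 0.255 and 0.466 times in Cebpa_ASKO. *Acvr1c* was thus the more abundant of the pair in every control and the less abundant in every Cebpa_ASKO library. With 3 libraries against 3, an exact permutation test of such a ratio cannot give a p below 0.1, so these ratios and shares are described without one.

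**Figure D3:**
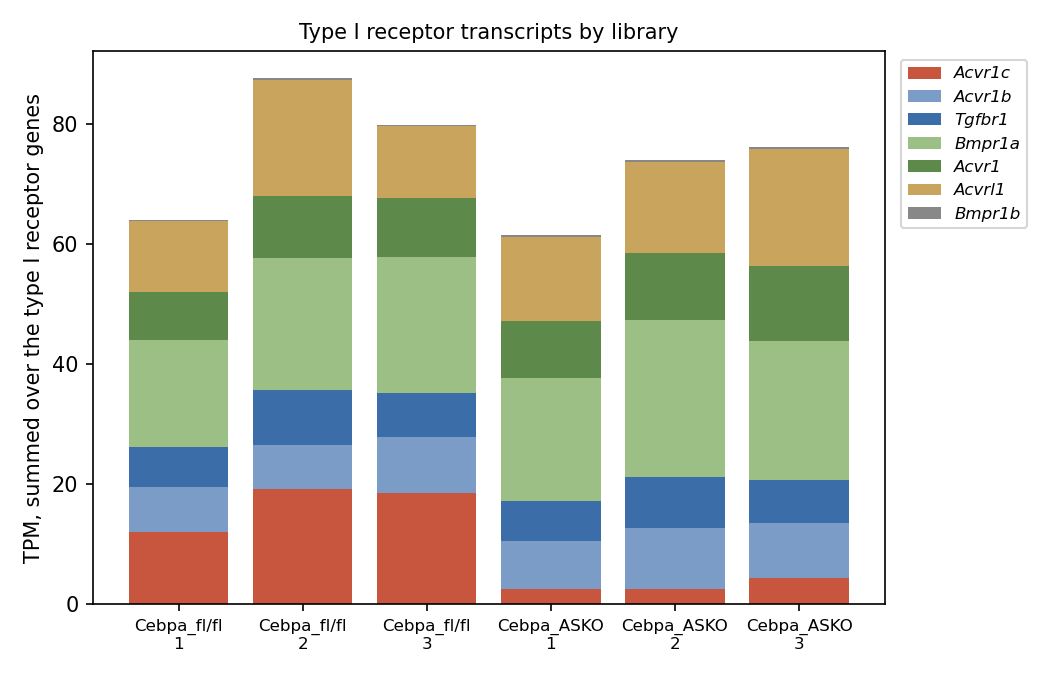
TPM of the 7 type I receptor genes stacked for each library (y axis, from 0), 3 Cebpa_fl/fl on the left and 3 Cebpa_ASKO on the right. The *Acvr1c* segment at the foot shrinks from a mean of 16.5 TPM to 3.13 TPM, and the stack above it stays between 52.0 and 71.8 TPM.

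Among type II receptors and the co-receptor, *Tgfbr2*, which binds TGF-beta itself, was the most abundant at 53.6 ± 6.52 TPM in the controls and 76.6 ± 16.6 TPM in Cebpa_ASKO. It had 257, 266 and 223 CPM in Cebpa_fl/fl and 327, 298 and 402 CPM in Cebpa_ASKO, which do not overlap. The change of 0.46 (95% interval 0.12 to 0.81, edgeR adjusted p = 0.141) was not called. Its 2 transcripts kept near-equal shares, 1 of them at 52.4% of the gene's TPM in Cebpa_fl/fl and 51.2% in Cebpa_ASKO. *Acvr2a* and *Acvr2b*, the type II receptors of activins, myostatin and several BMPs, had overlapping libraries. *Acvr2a* ran from 22.8 to 28.9 CPM in the controls and from 20.4 to 23.3 CPM in Cebpa_ASKO (-0.25), and *Acvr2b* from 2.83 to 3.50 and from 3.08 to 3.91 CPM (0.13). *Bmpr2*, the BMP type II receptor, ran from 72.6 to 95.7 and from 80.6 to 89.3 CPM (0.02, 95% interval -0.26 to 0.30). *Tgfbr3*, betaglycan, which presents TGF-beta2 and also binds inhibins, had 134 to 183 CPM in the controls and 143 to 161 CPM in Cebpa_ASKO (0.03, -0.31 to 0.37).

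The 5 signalling SMADs were the most even group. *Smad1*, *Smad2*, *Smad3*, *Smad4* and *Smad5* all had overlapping libraries and log2 fold changes between -0.13 and 0.14. Their 95% intervals lay between -0.32 and 0.38. The activin and TGF-beta SMADs, *Smad2* and *Smad3*, ran from 39.0 to 44.6 and from 43.7 to 52.1 CPM in the controls, and from 39.9 to 41.6 and from 48.3 to 55.8 CPM in Cebpa_ASKO. The BMP SMAD *Smad5* ran from 84.3 to 93.0 CPM in the controls and from 77.7 to 85.8 CPM in Cebpa_ASKO. *Smad4*, the partner of all the others, was the most abundant at 23.7 ± 3.67 and 26.6 ± 1.62 TPM.

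The inhibitory SMADs are feedback genes that the pathway itself turns on, *Smad6* chiefly by BMPs and *Smad7* by both branches. *Smad6* had 10.7, 10.5 and 8.71 CPM in Cebpa_fl/fl and 17.3, 17.6 and 8.35 CPM in Cebpa_ASKO. A pair of Cebpa_ASKO libraries stood above every control and Cebpa_ASKO 3 below all of them. The change of 0.53 (SE 0.287, edgeR adjusted p = 0.376) was not called, and without Cebpa_ASKO 3 it was 0.79 (adjusted p = 0.0431). The skeletal muscle sum of 2799, 5273 and 1807 CPM and the smooth muscle and pericyte sum of 1099, 1240 and 1037 CPM in Cebpa_ASKO 1, 2 and 3 stood in the same order. In Cebpa_ASKO 3 both sums were still above every control (at most 736 and 1003 CPM), while its *Smad6* was below every control. The part of these cells in *Smad6* was not tested. *Smad7* had means of 8.03 ± 1.38 and 8.25 ± 0.214 CPM and a change of 0.04.

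The *Smad6* upstream sequence is shown because it was the only one of the 34 promoter windows of 28 members in the RefSeq table to hold the strict C/EBP palindrome, which 0.183% of all windows hold. The 250 bases before the start are given (GRCm38.p6, chr9:64022060-64022309, minus strand), with the palindrome in capitals, at bases 39 to 32 before the start.
Smad6 upstream: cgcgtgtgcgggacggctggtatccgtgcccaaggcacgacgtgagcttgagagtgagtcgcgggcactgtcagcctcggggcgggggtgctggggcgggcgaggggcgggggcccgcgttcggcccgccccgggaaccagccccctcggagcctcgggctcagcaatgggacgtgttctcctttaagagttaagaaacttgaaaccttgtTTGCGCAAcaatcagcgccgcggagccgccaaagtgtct
The looser TTNCGNAA, which includes the palindrome, stood in the windows of *Bmp5*, *Smad6* and *Tgfbr2* (8.82% of the members' windows, beside 2.47% of all windows). GGCGCC stood in 9 of the members' windows, those of 8 genes (26.5%, beside 11.9%), and CAGACA in 6 windows (17.6%, beside 21.04%). GTCTAGAC stood only in the *Smad6* window among these, and in 0.213% of all windows. These matches describe letters in a window and are no measure of binding.

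The ID genes encode small proteins that bind E-proteins and keep them off DNA, and they are the most used readout of BMP signalling. *Id1* (chr2:152736251-152737410, plus strand, GRCm38) had 31.2, 33.6 and 28.0 CPM in Cebpa_fl/fl and 11.8, 7.53 and 11.5 CPM in Cebpa_ASKO. The control libraries lay close together and each was more than 2.0 times the highest Cebpa_ASKO library. The log2 fold change was -1.59 (SE 0.186, 95% interval -2.03 to -1.15, edgeR adjusted p = 0.00541), which left 33.2% of the control mean. A single transcript gave 95.8% of the gene's TPM in Cebpa_fl/fl and 95.1% in Cebpa_ASKO.

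*Id2* and *Id3* lay on the other side of 0. *Id2* had 35.8, 36.3 and 24.8 CPM in Cebpa_fl/fl and 41.4, 36.6 and 54.0 CPM in Cebpa_ASKO (log2 fold change 0.45, adjusted p = 0.278). *Id3*, the most abundant member of the pathway at 79.5 ± 11.3 TPM in the controls, had 70.9, 73.7 and 60.1 CPM in Cebpa_fl/fl and 92.0, 80.5 and 84.0 CPM in Cebpa_ASKO (0.33, adjusted p = 0.153). Neither was called, although in both genes the Cebpa_ASKO libraries lay above all controls. In TPM, *Id1* stood at 0.597, 0.592 and 0.625 of *Id3* in Cebpa_fl/fl and at 0.174, 0.127 and 0.182 of *Id3* in Cebpa_ASKO. Against *Id2*, *Id1* was 1.24, 1.30 and 1.61 in the controls and 0.403, 0.292 and 0.303 in Cebpa_ASKO. *Id1* was thus above *Id2* in every control library and below it in every Cebpa_ASKO library. Summed over the 3 ID genes the TPM were 163 ± 23.9 and 169 ± 21.4.

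*Id1* is also expressed in endothelium, and 9 of 10 endothelial markers had a log2 fold change below 0, with 2 of the 10 called lower. The 10 changes ran from -1.10 (*Cldn5*) to 0.36 (*Vwf*), and 6 markers had genotypes that did not overlap. The marker sum ran from 455 to 543 CPM in Cebpa_fl/fl and from 329 to 442 CPM in Cebpa_ASKO. The called markers were *Cldn5* (log2 fold change -1.10, edgeR adjusted p = 0.0472) and *Emcn* (-0.60, 0.0440), while *Pecam1* and *Cdh5*, which define these cells, had -0.33 and -0.58 and were not called. The adipocyte markers were lower too, with a median log2 fold change of -1.18 and 9 of 10 without overlap. The part of endothelial cells or of adipocytes in the *Id1* value was not tested.

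**Figure D4:**
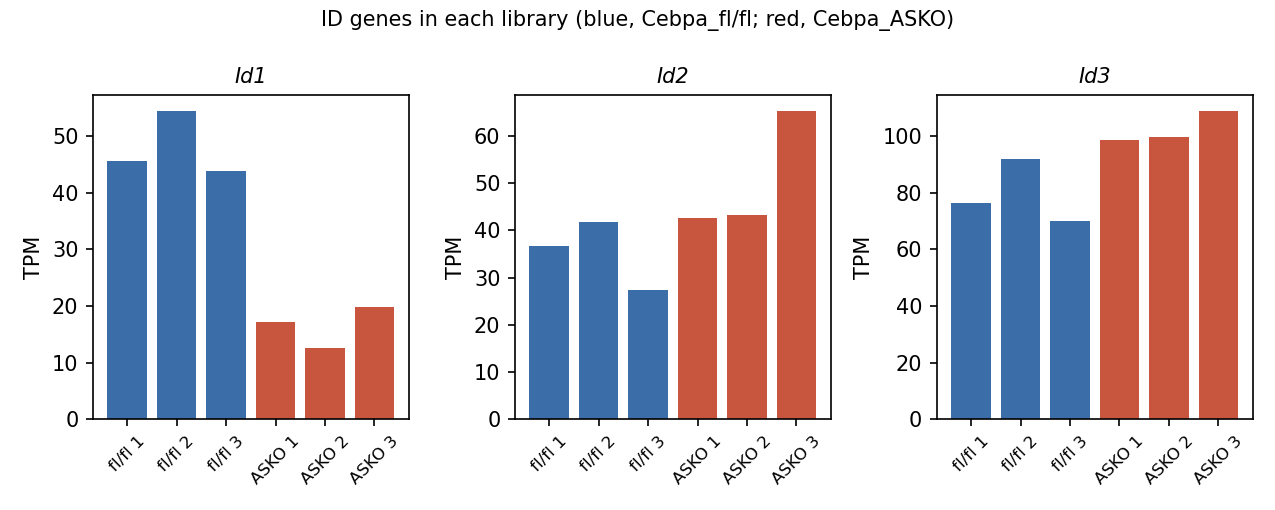
TPM of *Id1*, *Id2* and *Id3* in each library (separate linear y axes, each from 0), blue for Cebpa_fl/fl and red for Cebpa_ASKO. *Id1* falls in all 3 Cebpa_ASKO libraries, from a mean of 48.0 TPM to 16.5 TPM, while the bars of *Id2* and *Id3* in Cebpa_ASKO stand at or above the highest control.

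Ordered by level, *Id3*, *Tgfbr2*, *Id1*, *Bmp1* and *Id2* led the 40 genes in the controls, with mean TPM of 79.5, 53.6, 48.0, 37.7 and 35.3. The libraries of *Tgfbr2* and *Id1* overlapped each other there, as did those of *Id1* and *Bmp1* and those of *Bmp1* and *Id2*. In Cebpa_ASKO the leading genes were *Id3*, *Tgfbr2*, *Id2* and *Bmp1* at 103, 76.6, 50.4 and 47.5 TPM, and *Id1*, at 16.5 TPM, had left the group. At the other end, *Grem1*, *Mstn*, *Bmpr1b*, *Inhba* and *Bmp5* had means under 0.5 TPM in the controls.

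**Figure D5:**
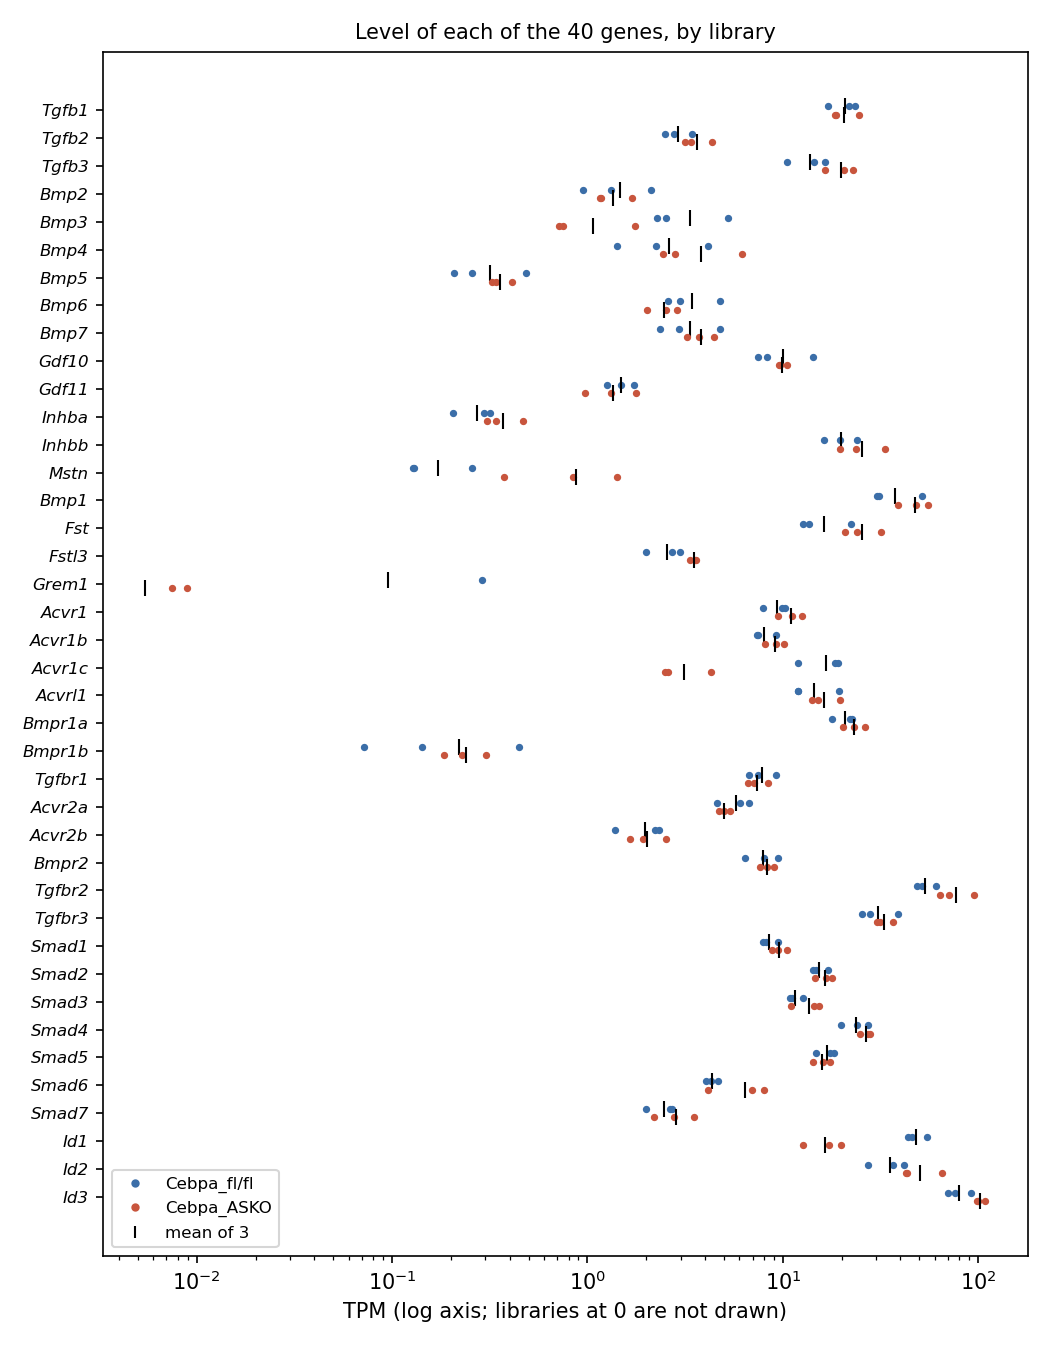
TPM of each of the 40 genes in each library on a log x axis, blue for Cebpa_fl/fl, red for Cebpa_ASKO, with a tick at the mean of 3 libraries, and libraries at 0 left out. The genes span from *Grem1* below 0.1 TPM on average to *Id3* near 100 TPM. Among genes drawn in every library, the colours lie apart most widely for *Acvr1c*, *Id1*, *Bmp3* and *Mstn*. The wider gap of *Grem1* rests on the libraries not at 0: Cebpa_fl/fl 1 at 0.287 TPM, and Cebpa_ASKO 1 and 3 at 0.00895 and 0.00745 TPM.

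A list of 73 further genes of the pathway was fixed by role: other ligands, co-receptors, antagonists, latency proteins, proteases, SMAD regulators and targets. Of these, 61 were tested and 3 were called, 2 higher and 1 lower (4.92%, beside 5.23% of all tested genes). Their median log2 fold change was 0.14, and 14 had genotypes that did not overlap, 6 higher and 8 lower (23.0%, beside 26.1% of all tested genes). DESeq2 called 7, beside 10.2% of all genes it tested. Leaving out 1 library gave 0 calls (without Cebpa_ASKO 1, where 10 genes had an unadjusted p below 0.05 in edgeR) to 6 calls (without Cebpa_ASKO 3), with 1 call each without Cebpa_fl/fl 1 and without Cebpa_ASKO 2. The shares of all genes called in those tests were 1.89% without Cebpa_ASKO 1, 3.12% without Cebpa_fl/fl 1 and 2.22% without Cebpa_ASKO 2.

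*Chrd* (chordin), which traps BMPs outside the cell, was the one called lower. It had 10.5, 14.3 and 10.9 CPM in Cebpa_fl/fl and 5.83, 5.999 and 5.41 CPM in Cebpa_ASKO, a tight group under every control (log2 fold change -1.05, SE 0.162, edgeR adjusted p = 0.0157). *Ltbp2*, of the latent TGF-beta binding protein family although it does not itself bind latent TGF-beta, had 32.4, 37.1 and 36.4 CPM in the controls and 76.1, 88.9 and 50.6 CPM in Cebpa_ASKO (1.02, SE 0.203, edgeR adjusted p = 0.0382). *Tgif1*, a nuclear co-repressor of SMAD2 and SMAD3, rose from 14.3, 13.6 and 16.8 CPM to 23.7, 27.0 and 21.7 CPM (0.69, SE 0.127, edgeR adjusted p = 0.0301). Within Cebpa_ASKO, *Ltbp2* and *Tgif1* stood in the library order of the skeletal muscle sum (2799, 5273 and 1807 CPM) and of the smooth muscle and pericyte sum (1099, 1240 and 1037 CPM), and both sums were higher than in every control. The part of those cells in these genes was not tested. The calls of these genes depended on single libraries: *Ltbp2* lost its call when any library but Cebpa_ASKO 3 was left out (adjusted p up to 0.148), *Tgif1* when any but Cebpa_fl/fl 3 or Cebpa_ASKO 3 was (up to 0.118), and *Chrd* without Cebpa_ASKO 1 or Cebpa_ASKO 2 (up to 0.0839).

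A few uncalled genes of that list were singled out after their values were seen. *Hfe2* (hemojuvelin, a BMP co-receptor of muscle and liver) had 1.604, 3.16 and 2.42 CPM in the controls and 7.80, 15.8 and 4.87 CPM in Cebpa_ASKO, and within Cebpa_ASKO the libraries stood in the order of the skeletal muscle marker sum and of *Mstn*. Its change of 1.99 missed the threshold (adjusted p = 0.0698), and the part of muscle tissue in it was not tested. *Gdf3*, an ALK7 ligand, stayed at or under 1.30 CPM in all libraries (log2 fold change 0.39, adjusted p = 0.661). *Ccn2* and *Tgfbi*, common TGF-beta targets, had overlapping libraries and changes of 0.10 and 0.25. *Id4*, the remaining ID gene, had a log2 fold change of -0.42, on the side of *Id1* (adjusted p = 0.646) with 25.4 CPM in Cebpa_fl/fl 2 against 9.42 and 9.49 CPM in the other controls.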

How the data were processed

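RNA-seq libraries of whole iWAT from 3 Cebpa_fl/fl and 3 Cebpa_ASKO mice were analysed. Samples were grouped by the labels' genotype. The authors deposited kallisto estimated counts for each transcript, without normalization, and TPM for each transcript and summed for each gene symbol. The submitters' processing notes name kallisto 0.44.0 and the genome builds GRCh38.p12 and GRCm38.p6, without a role for either. GRCm38.p6 was taken here as the mouse build. kallisto divides read pairs among similar transcripts, so shares of transcripts and of close relatives are estimates.

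Here 116816 of 118489 transcripts (98.6%) matched GENCODE M21 by identifier. Estimated counts were summed for each symbol and rounded. These sums went into a quasi-likelihood test (edgeR 4.0.16 in R 4.3.3, TMM factors 0.956 to 1.06, default filter) with Benjamini-Hochberg adjustment over 16069 genes. The study's methods name DESeq2, run here (1.42.0) as an alternative, with limma 3.58.1 on log2(TPM + 1), other scalings and filters, and each library left out. Replicates of a genotype differed by more than counting noise (chi-square over degrees of freedom, 27.6 to 239). The labels do not say that a replicate number marks a shared litter or day, and all libraries carry the same batch label. Scripts were tested on simulated data. Depth, 33141769 to 49477671 estimated counts, sets a limit of 3 counts per library for genes at 0, for counting error only.

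The members and lists were chosen with earlier results of these data known. All members are named, with every library, SE and adjusted p for those called or with genotypes that do not overlap and a log2 fold change of 0.5 or more in size. Of the further genes, those called are named. Marker lists of 10 genes each covered 9 cell types, and their results stand beside the members'.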

Additional observations from a re-analysis of the deposited data

How the results depend on the processing

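*Acvr1c* (-2.75 to -2.09) and *Id1* (-1.70 to -1.42) were called under all 16 alternatives, and *Cebpa* ranged from -3.67 to -3.50 with 1 library left out. The number of members called was 2 in the main test and under the other scalings, filters, length offset and limma, and 4 with DESeq2 (*Bmp3* -1.68, *Mstn* 2.34). It ran from 2 to 4 with 1 library left out, 4 without Cebpa_ASKO 3. Further pathway genes called numbered 3 in the main test, 7 with DESeq2, 0 with unfiltered limma (8 at an unadjusted p below 0.05), and 0 to 6 with 1 library left out. DESeq2 called 1802 genes in all, against 840.

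Deviations of same-numbered libraries from their genotype means correlated at r = 0.0956, -0.00613 and -0.259, and not every library correlated best with its own number. With 3 libraries per genotype, these values cannot show whether same-numbered mice shared a litter or day. The paper states that its mice of both genotypes were bred as true littermates, and the labels do not say which libraries shared a litter. With the replicate number as a block, 3 members were called, *Bmp3* (-1.69) added, no further pathway gene was called (0, with 8 at an unadjusted p below 0.05), and 370 genes were called in all.

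Of 616 member values under alternatives, 578 kept direction and side of the threshold, 6 became called and 32, in 14 genes, changed sign. None of these genes had a main change above 0.28 in size. With 1 library left out they ranged as follows: *Tgfb1* -0.22 to 0.038, *Bmp2* -0.41 to 0.12, *Bmp5* -0.060 to 0.82, *Bmp7* -0.069 to 0.41, *Gdf10* -0.19 to 0.22, *Acvrl1* -0.065 to 0.28, *Bmpr1a* -0.016 to 0.12, *Bmpr1b* -0.34 to 1.02, *Bmpr2* -0.079 to 0.11, *Tgfbr3* -0.049 to 0.18, *Smad2* -0.046 to 0.063, *Smad4* -0.017 to 0.041 and *Smad7* -0.092 to 0.14. *Acvr2b* was -0.019 with the length offset. *Smad2* was 0.050 with total counts, 0.029 with the length offset, 0.091 and 0.096 with limma at pseudocounts of 1 and 0.1, 0.091 without its filter, and 0.0010 with the block. *Gdf10* was 0.038 and 0.045 with limma at pseudocounts of 1 and 0.1, and 0.038 without its filter. The cause was not tested. Depth limits *Grem1*, which had at most 1 count in 5 of the libraries.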
